A study of Mus musculus with 32 samples.

Results

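The comparison set 8 olfactory bulb samples of Tshz1 mutant mouse embryos at E18.5 against 8 control samples of the same age, chosen by genotype and age from the 32 samples of the series. The mutants carried a GFP allele and a delta allele of Tshz1, and the controls carried GFP over wild type (GFP/+), so 1 GFP allele was common to both groups. All 16 were wild type for the Nestin-Cre transgene and of mixed C57/BL6, 129/Ola and CD1 background. The other 16 samples were P30 bulbs, 8 mutants (flox/GFP) and 8 controls (flox/+), all with Nestin-Cre, and the series record notes that the mutant and control labels of all 16 P30 samples were later exchanged at the submitters' request; the exchanged labels are used here. Total RNA was read on Illumina bead arrays, 1 array a sample. It is not stated that the samples were separate animals, so p-values measure the spread between these samples.

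Tshz1 encodes a zinc finger transcription factor of the teashirt family. In the olfactory bulb, sensory axons from the nose synapse on mitral and tufted cells, the glutamatergic output neurons. Its granule and periglomerular interneurons, most of them GABAergic, are born outside the bulb, migrate in as neuroblasts in a stream, and then leave that stream radially to settle and differentiate. Secreted cues such as prokineticin 2 act on the migrating cells, and transcription factors of the Dlx, Sp, Meis and Pbx families mark the lineage.

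Of 25697 probes, 14455 were detected (detection p under 0.05) on at least 4 of the 16 arrays, and these gave 10852 genes, of which 855 were probes with no gene name. Detected probes made up 52.6% ± 1.7 of the array in mutants and 51.7% ± 1.8 in controls (SD, n = 8 each; exact permutation p = 0.295, two-sided). The 9 markers of the tissue that were looked up, Dlx1, Dlx2, Sp8, Gad1, Meis2, Tbr1, Eomes, Tbx21 and Reln, were detected on all 16 arrays. Each of 2 chips held 4 arrays of each genotype, and chip entered the main fits as a block. Xist was low and Y-linked transcripts were high on 3 of 8 mutant and 2 of 8 control arrays. Controls 6 and 8 stood apart from the other arrays on the leading principal components. Neither Tshz1 nor Tshz2 had a named probe among those used here, and the genotype labels therefore have no check by the targeted gene.

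Of the 10852 genes, 75 (0.691%) passed an adjusted p of 0.05, 11 of them higher in the mutants (0.101%) and 64 lower (0.59%). Falls of at least 2-fold numbered 11 and smaller falls 53, while 0 of the 11 that rose reached 2-fold. All 75 had the same direction on both chips. The 8 mutants and the 8 controls did not overlap at all for 37 genes (0.341%), 33 lower and 4 higher in the mutants, and 35 of these were among the 75. At an unadjusted p of 0.05, 550 genes were higher and 674 lower (11.3% of all). The median change of all genes was -0.01 on the log2 scale, 48.7% of genes were higher in the mutants, and 73.5% changed by under 0.2. Averaged over the 64 genes that fell, each mutant array lay between 7.97 and 8.05 on the log2 scale and each control array between 8.73 and 8.99, values that describe genes chosen for this difference. The number called depended on single arrays: it was 126 without control 5, of which 30 were higher, and 55 to 78 without any other single array, of which 5 to 14 were higher. On chip 1 alone 31 genes passed and on chip 2 alone 4. In bulk RNA, fewer cells of a type and less RNA per cell cannot be told apart.

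**Figure D1:**
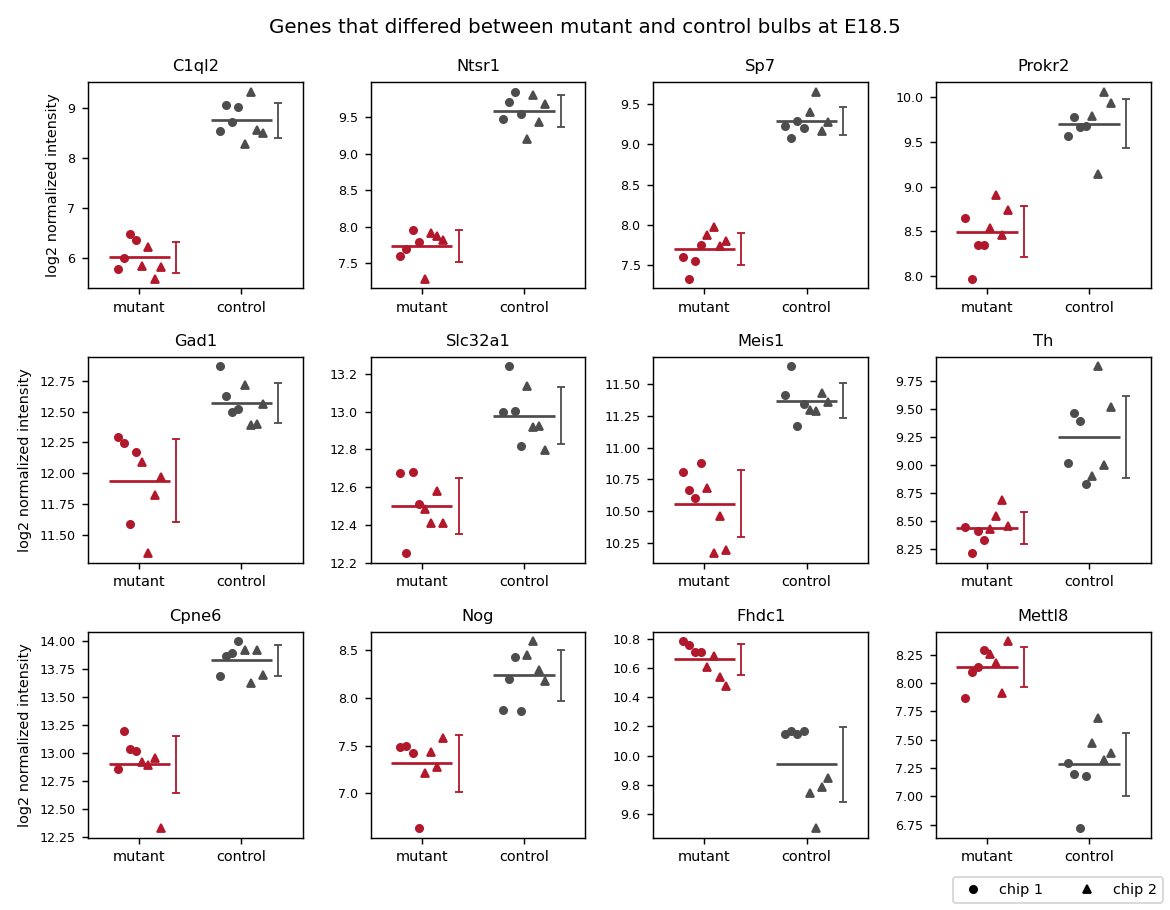
Log2 normalized intensity of 12 genes on each E18.5 array, mutants on the left and controls on the right; circles are chip 1, triangles chip 2, horizontal lines group means and bars SD (n = 8 each). In all 12 panels the 8 mutants and the 8 controls do not overlap, with Fhdc1 and Mettl8 above the controls and the other 10 below them.

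Receptors of secreted peptides included the largest fall after that of C1ql2. This was Ntsr1, a neurotensin receptor, which lay between 7.29 and 7.95 (median 7.81) in mutants and between 9.20 and 9.85 (median 9.61) in controls, in log2 normalized intensity. The groups were far apart, and the level was 3.60-fold lower in mutants (log2 change -1.85, SE 0.11, limma adjusted p = 7.79e-09). Nmbr, the neuromedin B receptor, ran from 5.89 to 6.96 in mutants and from 6.54 to 8.11 in controls, so that the ranges overlapped, and it fell 2.19-fold (log2 change -1.13, SE 0.21, limma adjusted p = 0.00675). Crhbp, which binds corticotropin-releasing hormone outside cells, ran from 5.49 to 6.53 in mutants and from 6.88 to 7.54 in controls with no overlap, and fell 2.27-fold (limma adjusted p = 4.69e-05). Its probe was detected on 5 of 8 mutant arrays, and without background correction the log2 change was -0.60. Npr3, the clearance receptor of natriuretic peptides, went the other way: 6.44 to 7.20 in mutants against 5.61 to 6.42 in controls, 1.69-fold higher (limma adjusted p = 0.00607), with its probe detected on 8 mutant and 4 control arrays. Of the 15 measured peptide receptors and binding proteins, 3 fell, 1 rose and 11 in all had a lower mean in mutants, with a median change of -0.13, or -0.25 over probes detected on at least 8 arrays. Among the others Cckbr changed by -0.64 and Crhr1 by -0.40, both short of the threshold. Of 16 peptides measured, Vgf, a granin-like secreted precursor (-0.78), and Cck, cholecystokinin (-0.58), fell, and the median change was -0.05, at -0.16 on chip 1 and 0.04 on chip 2.

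C1ql2 encodes a secreted C1q-like protein that organizes synapses. Its level was 5.59 to 6.49 (median 5.93) in mutants, where 6 of 8 arrays detected it, and 8.29 to 9.33 (median 8.65) in controls. Every mutant lay far under every control, and the level was 6.68-fold lower (log2 change -2.74, SE 0.15, limma adjusted p = 2.85e-09), by -2.68 on chip 1 and -2.80 on chip 2, and by -1.73 without background correction. The other 6 measured C1q-like, cerebellin and neurexin-linked synaptic organizers changed by -0.18 to 0.27, and 0 of them passed, so the list median was -0.03.

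In the prokineticin system the receptor Prokr2 fell, and so did the ligand, with a less stable call. Prokr2, the receptor through which prokineticin 2 acts on migrating olfactory neuroblasts, had 7.97 to 8.91 (median 8.50) in mutants and 9.15 to 10.06 (median 9.73) in controls. The groups were apart, and the level was 2.31-fold lower (log2 change -1.21, SE 0.13, limma adjusted p = 4.69e-05). Prok2, the ligand, had 5.85 to 6.83 in mutants and 6.49 to 7.27 in controls, with overlap, and fell 1.52-fold (log2 change -0.60, SE 0.13, limma adjusted p = 0.0364, or adjusted p = 0.0878 with replicates blocked by number). Its call was kept in 14 of 32 alternative settings and samplings, and in 5 of the 16 that left out a single array. Without background correction its change was -0.29. The call of Prokr2 was kept in 31 of 32. Prokr1, the second receptor, changed by 0.18 and did not pass.

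Genes for making and packaging GABA fell. Gad1, which synthesizes GABA from glutamate, had 11.35 to 12.29 (median 12.03) in mutants and 12.39 to 12.87 (median 12.54) in controls, 1.55-fold lower without overlap (log2 change -0.63, SE 0.12, limma adjusted p = 0.0155). Slc32a1, the vesicular GABA transporter, had 12.25 to 12.68 in mutants and 12.79 to 13.24 in controls, 1.39-fold lower without overlap (log2 change -0.48, SE 0.09, limma adjusted p = 0.0127, or adjusted p = 0.0611 with the replicate block). All 6 measured genes of GABA synthesis, transport and breakdown had lower means in mutants, with changes down to -0.14 for Slc6a13 and a median of -0.23. Averaged over the 6 genes and set to the control mean, the 8 mutants lay between -0.55 and -0.18 and the 8 controls between -0.15 and 0.09. That mean includes Gad1 and Slc32a1, which passed in this same comparison, so the separation is partly set by the calls. Without controls 6 and 8, Gad1 gave an adjusted p of 0.0528 at the same change, and Slc32a1 passed. On the receiving side, Gabrd, the delta subunit of extrasynaptic GABA-A receptors, fell by 0.68 on the log2 scale, while the other 5 measured GABA receptor subunits changed by 0.02 to 0.28 and did not pass.

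Granule cell markers lay lower as a list, with a median of -0.34 over 9 genes and 7 of 9 lower. Gng4, a G protein gamma subunit, had 10.89 to 11.43 in mutants and 11.45 to 11.93 in controls, 1.63-fold lower without overlap (limma adjusted p = 0.00065). Nrgn, the calmodulin-binding protein neurogranin, ran from 6.67 to 7.51 in mutants and from 7.39 to 8.48 in controls and fell 1.76-fold (limma adjusted p = 0.00428). Gpsm1 (-0.41), Meis2 (-0.38) and Tpbg (-0.34) were lower at an unadjusted p of 0.05 and did not pass, and Ppp1r1b (0.46) was higher at that level and did not pass. Of 8 periglomerular markers 1 fell, tyrosine hydroxylase, Th, the first enzyme on the way to dopamine (8.21 to 8.69 in mutants, 8.83 to 9.88 in controls, 1.76-fold lower, limma adjusted p = 0.00314). Th stood alone among 9 genes of dopamine synthesis and transport, of which 6 had higher means in mutants and the list median was 0.12.

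Genes of migrating and newly arrived neurons did not follow. Among 16 neuroblast and immature neuron genes 0 passed, with 1 higher and 0 lower at an unadjusted p of 0.05. The median was 0.06, Dcx changed by 0.05 and Dlx1 by 0.03, while under median scaling the list median was -0.03. Among 16 interneuron lineage transcription factors 0 passed with limma, 4 were higher and 1 lower at an unadjusted p of 0.05, and 8 lay on each side of 0. Zic2, a zinc finger factor, came closest (7.75 to 8.13 in mutants and 6.97 to 7.78 in controls, log2 change 0.50, limma adjusted p = 0.0573). Among 13 migration signals of the chemokine, Reelin and neuregulin systems 0 passed, 2 were higher and 1 lower at an unadjusted p of 0.05, and the median was 0.15, or 0.07 without controls 6 and 8, with Ackr3, a scavenging chemokine receptor (0.37), and Dab1, the Reelin adaptor (-0.24), having the smallest p.

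Several single transcription factors moved. Sp7, known as osterix from bone, had 7.33 to 7.97 (median 7.74) in mutants and 9.08 to 9.66 (median 9.25) in controls. No array overlapped, and the level was 3.01-fold lower (log2 change -1.59, SE 0.09, limma adjusted p = 3.27e-09). Meis1, a homeodomain factor of the lineage, had 10.17 to 10.88 in mutants and 11.17 to 11.64 in controls, 1.75-fold lower without overlap (limma adjusted p = 0.000227). Of the other 5 Meis, Pbx and Irx genes, Meis2 changed by -0.38 and Pbx3 by -0.09, and 0 passed. Nkx2-2, a homeodomain factor of ventral neural and oligodendrocyte precursors, fell by 0.52 on the log2 scale (limma adjusted p = 0.0472), as the 1 called gene of 13 oligodendrocyte and myelin genes. Rbfox3, a splicing regulator whose protein is the neuronal antigen NeuN, fell 1.67-fold, to a mean of 10.78 ± 0.21 in mutants against 11.52 ± 0.32 in controls (SD, n = 8 each; limma adjusted p = 0.00119). Tshz3, the measured paralog of Tshz1, had 11.54 to 12.01 in mutants and 11.08 to 11.59 in controls. Its groups overlapped narrowly, and the change of 0.30 (SE 0.10) did not pass (limma adjusted p = 0.228), at 0.15 on chip 1 and 0.46 on chip 2.

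Because Meis1 fell, the start sites of the genes that fell were searched for the core word of Meis binding, TGACAG, on both strands, in windows of 250 bases before and 50 after the start from RefSeq (GRCm38.p6). Of the 75 genes, 58 had an entry. The word lay in 14 of 58 windows (24.1%) of genes that fell, 1 of 10 windows (10%) of genes that rose, 17.3% of the windows of all tested genes and 19.2% of all 32851 windows of the table. Windows that hold it are shown for 4 of the genes that fell, as examples and not as a ranking by size. They run 5′ to 3′ on the gene's strand, with the word or its complement in capitals. C1ql2 lies at chr1:120340332-120340631 (+), Cpa3 at chr3:20242132-20242431 (-), Icam5 at chr9:21031788-21032087 (+) and Grid2ip at chr5:143369824-143370123 (+). A match is a description of the letters and not evidence of binding.
C1ql2: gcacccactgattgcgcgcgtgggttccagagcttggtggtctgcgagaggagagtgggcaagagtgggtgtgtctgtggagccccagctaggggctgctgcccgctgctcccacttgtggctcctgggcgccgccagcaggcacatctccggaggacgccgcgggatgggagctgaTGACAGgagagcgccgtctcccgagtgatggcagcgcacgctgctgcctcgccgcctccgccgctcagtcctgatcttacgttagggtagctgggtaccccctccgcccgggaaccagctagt
Cpa3: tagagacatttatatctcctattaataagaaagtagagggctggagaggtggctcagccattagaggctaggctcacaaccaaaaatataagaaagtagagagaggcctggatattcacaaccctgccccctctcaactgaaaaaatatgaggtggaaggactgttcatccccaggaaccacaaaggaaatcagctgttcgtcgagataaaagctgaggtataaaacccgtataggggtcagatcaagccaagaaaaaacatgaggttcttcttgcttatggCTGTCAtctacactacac
Icam5: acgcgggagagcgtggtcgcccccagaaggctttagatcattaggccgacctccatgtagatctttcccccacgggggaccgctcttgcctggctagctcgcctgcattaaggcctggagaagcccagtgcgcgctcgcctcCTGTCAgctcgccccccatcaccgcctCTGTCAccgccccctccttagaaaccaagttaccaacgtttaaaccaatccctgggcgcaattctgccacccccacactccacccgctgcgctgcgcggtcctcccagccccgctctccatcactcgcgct
Grid2ip: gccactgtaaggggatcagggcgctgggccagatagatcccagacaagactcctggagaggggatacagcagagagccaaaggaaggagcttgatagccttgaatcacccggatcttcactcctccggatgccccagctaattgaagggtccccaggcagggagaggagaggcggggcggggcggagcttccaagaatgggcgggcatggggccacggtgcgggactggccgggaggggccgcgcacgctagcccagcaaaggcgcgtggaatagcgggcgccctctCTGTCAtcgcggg

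Genes of the postsynaptic density, calcium signalling and potassium currents supplied the next group of falls. Cpne6, a copine that binds phospholipid in response to calcium, had 12.33 to 13.20 in mutants and 13.63 to 14.00 in controls, 1.90-fold lower without overlap (limma adjusted p = 6.3e-05). Among the 17 calcium-binding proteins measured, Necab2, an EF-hand protein (-0.74), and Hpcal4, a hippocalcin relative (-0.51, adjusted p = 0.116 with the replicate block), also fell, and 0 rose. Over the 17 genes the mutants lay between -0.33 and -0.15 of the control mean and the controls between -0.10 and 0.07, without overlap. That mean includes the 3 genes that passed in this same comparison, so the separation is partly set by the calls. The median change was -0.16 on chip 1 and -0.01 on chip 2. Of 19 postsynaptic calcium and kinase genes, 4 fell and 0 rose. These were Camk2a, a subunit of the calcium/calmodulin-dependent kinase of synapses (-0.80), Icam5, the dendritic adhesion molecule telencephalin (-0.96, detected on 1 mutant and 8 control arrays), Nrgn, and Camkv, a kinase-like relative (-0.60, adjusted p = 0.0693 with the replicate block). The list median was -0.09, and it was -0.18 without control 6 and -0.06 without mutant 2. Of 18 genes of synaptic vesicle release 0 passed, 1 was higher and 2 were lower at an unadjusted p of 0.05, and Syn1, synapsin, had the smallest p (12.74 to 13.19 in mutants, 12.97 to 13.96 in controls, log2 change -0.43, limma adjusted p = 0.203).

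Among channels and transporters, the falls were single genes of large families. Kcnh3, a voltage-gated potassium channel, had 5.91 to 6.48 in mutants and 6.52 to 8.06 in controls, 2.05-fold lower (limma adjusted p = 0.00235), and it was the 1 called gene of 20 voltage-gated potassium channel genes. Kcnj4, an inward rectifier, had 6.56 to 7.45 in mutants and 7.68 to 8.55 in controls, 2.00-fold lower (limma adjusted p = 0.000185), the 1 called gene of 20 other potassium channels. Of 24 sodium and calcium channel genes and 9 glutamate receptor subunits 0 passed, with 1 higher in each list and 1 and 0 lower at an unadjusted p of 0.05. Slc1a1, a neuronal glutamate transporter, fell by 0.38 on the log2 scale (limma adjusted p = 0.0366, or adjusted p = 0.107 with the replicate block). It and Slc32a1 were the 2 called genes of 185 solute carriers, whose median was -0.06.

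Signalling and matrix genes gave 5 further falls and 1 rise. Nog, noggin, a secreted BMP antagonist, had 6.64 to 7.58 in mutants and 7.86 to 8.60 in controls, 1.89-fold lower without overlap (limma adjusted p = 0.000832). Crabp1, a cytosolic retinoic acid-binding protein, had 5.23 to 6.94 in mutants and 7.10 to 8.21 in controls, 3.22-fold lower (limma adjusted p = 0.000472), by -2.25 on chip 1 and -1.13 on chip 2. Its probe was detected on 5 of 8 mutant arrays, and without background correction the log2 change was -0.94. Adamts19, a secreted metalloprotease, had 5.78 to 6.71 in mutants and 7.44 to 8.63 in controls, 2.86-fold lower (limma adjusted p = 0.000141). Each was the 1 called gene of its list, of 39 BMP and TGF-beta, 9 retinoic acid and 39 protease genes. Cdh22, a classical cadherin (-0.93), and Pde4d, a cyclic AMP phosphodiesterase (-0.60), were likewise alone among 52 cadherin and 29 cyclic nucleotide genes. The Wnt ligand Wnt9b was above background on 5 of 8 mutant arrays and on 0 of 8 control arrays. It had 5.53 to 6.73 in mutants and 4.83 to 5.34 in controls, and was at least 1.11-fold higher (measured means 6.01 and 5.12, limma adjusted p = 0.00375). Of the other 38 measured Wnt pathway genes 0 passed. With Wnt9b, 5 were higher and 3 lower at an unadjusted p of 0.05, and the list median was 0.03.

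Outside the lists, 29 named genes fell and 6 rose. Among those that fell were Snx7, a sorting nexin (-0.92), Grid2ip, a scaffold of delta glutamate receptors (-0.88), Sptb, beta spectrin (-0.82), Trhde, the ectoenzyme that degrades thyrotropin-releasing hormone (-0.81), Sybu, an adaptor for axonal transport (-0.77), and Actn2, an alpha-actinin (-0.76). Sybu had 11.94 to 12.20 in mutants and 12.50 to 13.01 in controls, 1.70-fold lower and tightly grouped in the mutants (SD 0.09, n = 8; limma adjusted p = 6.3e-05). Rpp25 (-0.79), Slc35f4 (-0.75), Rasl11b (-0.57), Rap1gap2 (-0.55) and Brinp2 (-0.50) were others, each detected on all 16 arrays. A probe with no gene name fell by 1.43 on the log2 scale. Another fell by 0.49 (adjusted p = 0.0693 with the replicate block) and a further one rose by 0.46 (adjusted p = 0.0855 with that block). Near the threshold, Synm, Nkx2-2 and Top2a passed with adjusted p between 0.0457 and 0.0496, while Frat2 (-0.63), Crtc1 (-0.47) and Cpne4 (-0.61) missed it at 0.0503 to 0.0541.

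Of the 11 genes that rose, the clearest was Fhdc1, a formin-like protein of microtubules and actin. It had 10.48 to 10.79 in mutants and 9.50 to 10.17 in controls, 1.65-fold higher without overlap (log2 change 0.72, SE 0.08, limma adjusted p = 6.3e-05). Mettl8, an RNA methyltransferase, had 7.87 to 8.37 in mutants and 6.72 to 7.69 in controls, 1.81-fold higher without overlap (limma adjusted p = 0.000233). Creg2 (0.94), Trp63, a p53 relative of epithelia (0.77), Synm, an intermediate filament protein (0.64), Tfap2b, an AP-2 factor (0.61), and Pgm5 (0.60) overlapped between the groups. With the replicate block, Creg2 (adjusted p = 0.0791), Synm (adjusted p = 0.0874), Tfap2b (adjusted p = 0.109) and Pgm5 (adjusted p = 0.0611) no longer passed. Tfap2b was the 1 called gene of 21 meningeal and fibroblast markers, whose median was 0.12, and the part of such cells in its rise was not tested. The second probe of Synm gave 0.20 and that of Pgm5 0.20, neither passing in the fit of all probes.

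Mast cell transcripts had a median of -0.61 over 9 measured genes, or -0.43 without controls 6 and 8, with 6 lower and 3 higher. Cpa3, mast cell carboxypeptidase A, had 5.61 to 8.17 (median 6.62) in mutants and 7.36 to 9.44 (median 8.52) in controls. The groups overlapped, and the level was 3.10-fold lower (log2 change -1.63, SE 0.29, limma adjusted p = 0.00675). Cma1, a chymase, had 5.23 to 6.89 in mutants and 5.97 to 7.38 in controls and fell 1.97-fold (limma adjusted p = 0.033, or adjusted p = 0.0745 with the replicate block), with detection on 3 mutant and 8 control arrays. Tpsb2, a tryptase, and Hdc, which makes histamine, both changed by -0.61 and did not pass, and Slc18a2 (0.56) and Hpgds (0.36) were higher without passing. Averaged over the 9 genes, 7 mutants lay between -0.81 and -0.33 of the control mean and mutant 5 at 0.46, while the controls ran from -0.26 to 0.59 with control 6 the highest. Without controls 6 and 8, Cpa3 passed and Cma1 did not (adjusted p = 0.163). Of 10 blood cell genes 8 were lower with a median of -0.10 and 0 called, and S100a8 was lowest at -0.71 (limma adjusted p = 0.243). The blood median was -0.06 without mutant 5, where the mast cell median was -0.65, and -0.16 without control 6. The part of blood or mast cell content in these values was not tested.

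**Figure D2:**
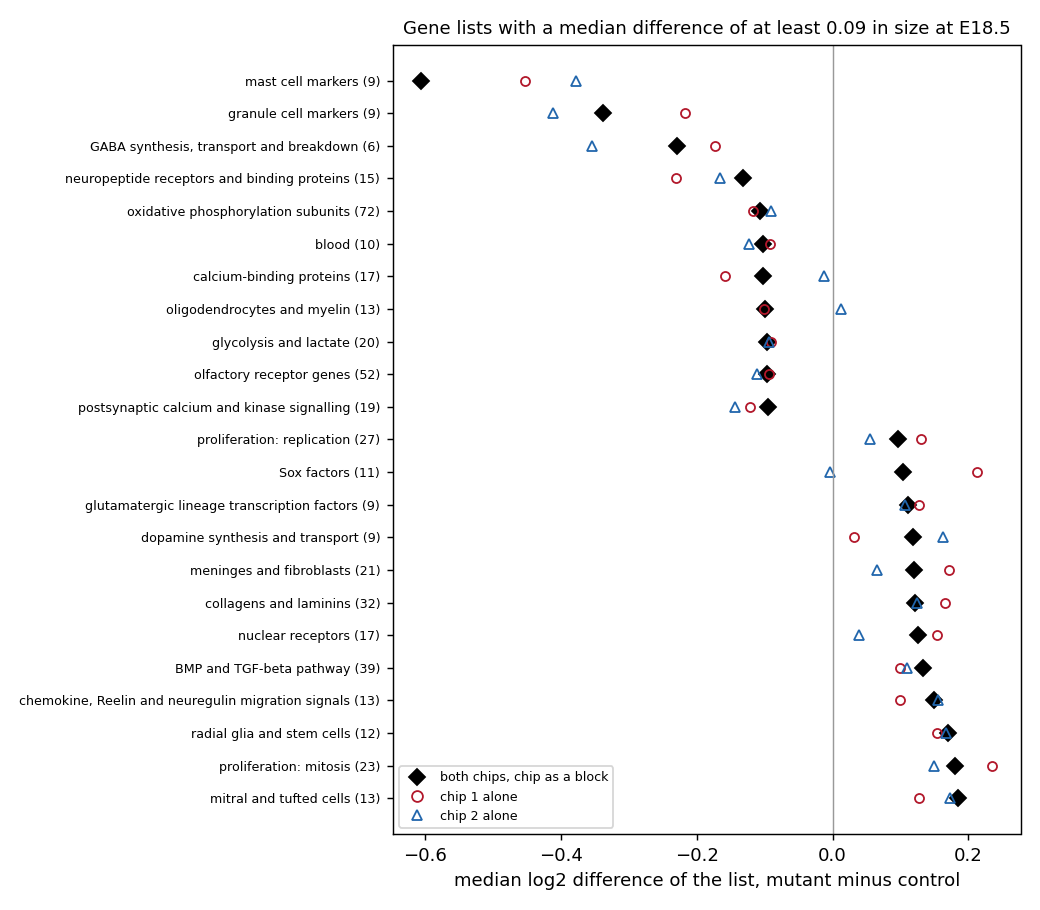
Median log2 difference, mutant minus control, of each list with at least 6 measured genes and a median of at least 0.09 in size, over both chips (diamonds) and on each chip alone (circles and triangles), with the number of genes in parentheses. Lists of mast cell, granule cell and GABA genes lie lowest and mitosis and mitral and tufted cell genes highest, with both chips on the same side of 0 for all lists shown but the oligodendrocyte list (0.01 on chip 2) and the Sox list (below 0 on chip 2).

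Below the single calls, some families shifted together by small amounts. Dividing-cell genes lay higher: of 23 mitosis genes, 22 had higher means in mutants, against 48.7% of all genes, and the median was 0.18. Top2a, the topoisomerase of dividing cells, was the 1 called gene, at 10.12 to 10.52 in mutants and 9.68 to 10.14 in controls, 1.34-fold higher (limma adjusted p = 0.0496, or adjusted p = 0.135 with the replicate block). A further 6 mitosis genes were higher at an unadjusted p of 0.05, among them the spindle motor gene Kif11 (0.41), Prc1 (0.36) and Anln (0.34). Averaged over the 23 genes, the mutants lay between 0.08 and 0.29 of the control mean and the controls between -0.12 and 0.12, and 7 of 8 mutants were above every control. Replication genes followed at a lower size, 22 of 27 higher with a median of 0.10, or 0.05 without control 1, and 0 called, 3 higher at an unadjusted p of 0.05 (Ccne2 0.47, Mcm6 0.31 and Mcm4 0.23). Of 12 radial glia and stem cell genes 8 were higher with a median of 0.17 and 0 called. Vim, vimentin (0.34), Sox2 (0.55), Nr2e1 (0.36) and Ednrb (0.33) were higher at an unadjusted p of 0.05, while Nes was at 0.00 and Hes5 at -0.27. These 3 medians kept their sign in all 32 alternative settings and samplings tried, and without controls 6 and 8 Top2a did not pass (adjusted p = 0.145).

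**Figure D3:**
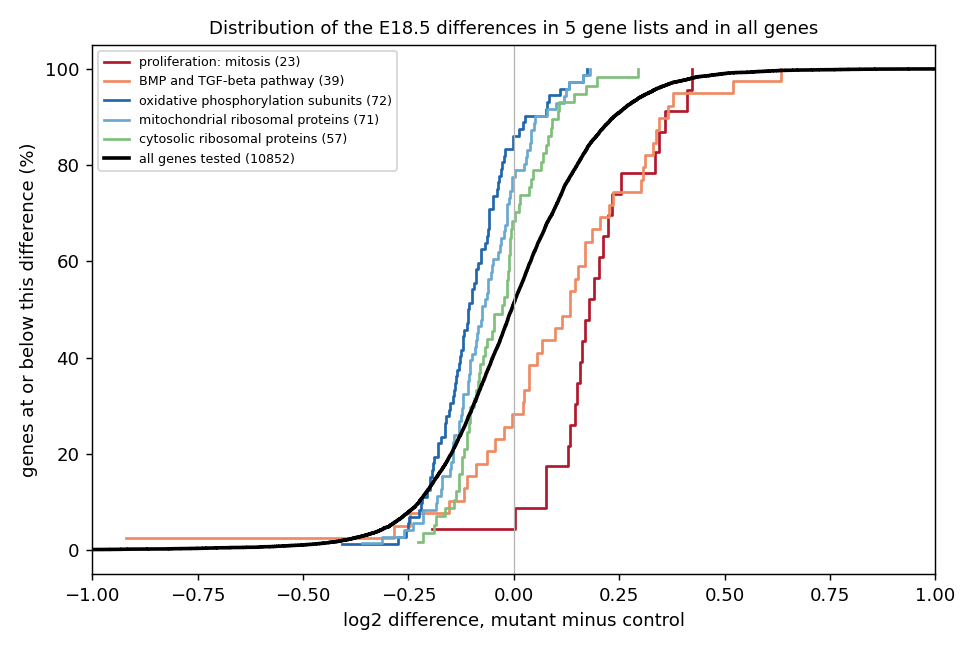
Cumulative share of genes, in percent, against the log2 difference, mutant minus control, for 5 lists (colours) and all 10852 genes (black), with the size of each list in the legend. The mitosis curve lies to the right of that of all genes, the oxidative phosphorylation curve to the left with nearly all values within 0.3 of 0, and both are narrow beside the single-gene changes reported above.

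Genes of energy metabolism lay slightly lower. Of 72 nuclear subunits of oxidative phosphorylation, 62 had lower means in mutants (86.1%, against 51.3% of all genes), with a median of -0.11, which was -0.12 on chip 1, -0.09 on chip 2 and -0.06 without control 3. With limma 0 of them passed and 4 were lower at an unadjusted p of 0.05, Cox5b (-0.25), Ndufb7 (-0.27), Atp5d and Cox7a2. Averaged over the 72 genes the arrays overlapped, from -0.23 to 0.08 in mutants and from -0.12 to 0.17 in controls, with 5 mutants below every control. Of 71 mitochondrial ribosomal proteins 55 were lower (median -0.07, or -0.03 on chip 2, Mrps12 lowest at -0.36), and of 20 glycolysis genes 16 were lower (median -0.10). In each list 0 passed, with 5 and 1 lower at an unadjusted p of 0.05. Cytosolic ribosomal proteins (39 of 57 lower, median -0.03) and 11 reference genes (median -0.02) lay near all genes, with 0 in either list at an unadjusted p of 0.05. Most of the subunits were bright: 55 of the 72 were in the brightest of 5 equal bins of genes by level. In that bin the median of all genes was 0.00 after quantile normalization. When arrays were scaled to equal medians instead, the subunits were at -0.22, the cytosolic ribosomal proteins at -0.16, the reference genes at -0.15 and all genes at -0.03. The part of brightness in the shift was not tested.

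**Figure D4:**
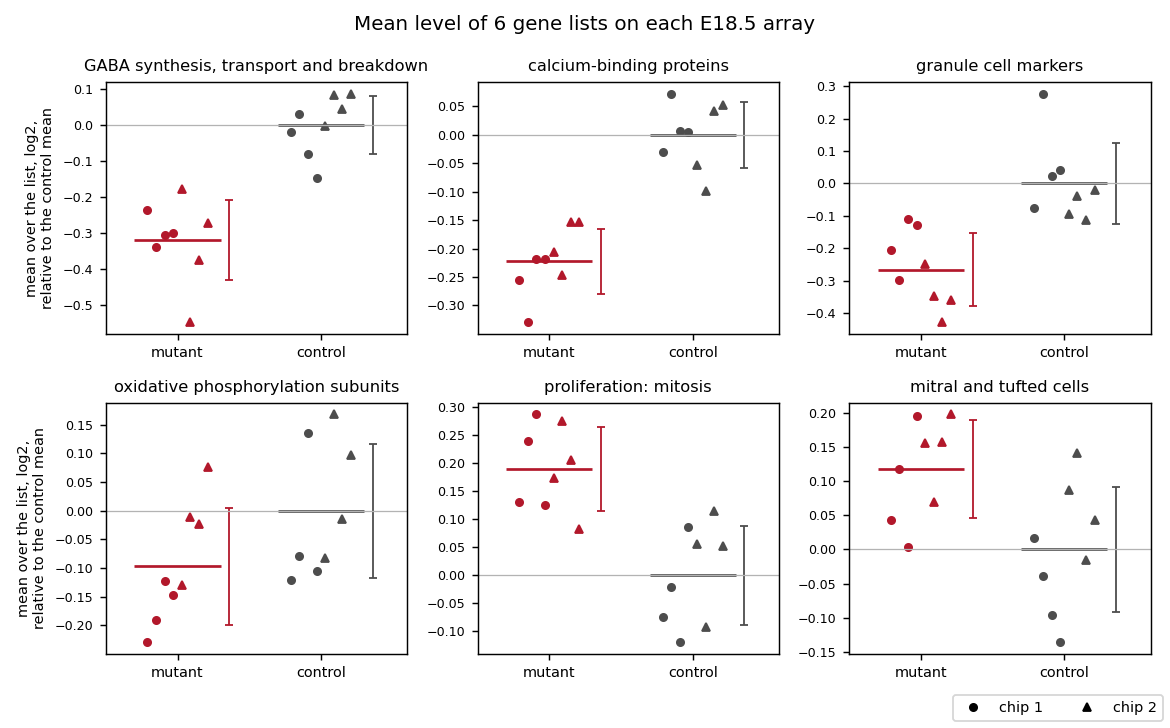
Mean of each of 6 gene lists on each E18.5 array, as log2 relative to the mean of the controls, mutants on the left and controls on the right; circles are chip 1, triangles chip 2, lines group means and bars SD (n = 8 each). Mutants and controls separate without overlap for the GABA and calcium-binding lists, nearly so for granule cell and mitosis genes, and overlap for oxidative phosphorylation and for mitral and tufted cell genes. The GABA, calcium-binding, granule cell and mitosis lists include genes called in this same comparison.

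Mitral and tufted cell genes, collagens and laminins, and genes of the BMP and TGF-beta pathway leaned upward, with 0 called higher. Of 13 mitral and tufted cell genes 10 were higher, with a median of 0.18, or 0.09 under median scaling, and 0 called, 2 being higher at an unadjusted p of 0.05. Ntng1, a netrin-G adhesion protein, had 11.43 to 12.01 in mutants and 11.25 to 11.63 in controls (log2 change 0.24, limma adjusted p = 0.328). Reln (0.16), Eomes (0.22) and Tbx21 (0.19) had the same sign, whereas Slc17a7 was at -0.25. Of 32 collagens and laminins 23 were higher, with a median of 0.12 and 0 called, 5 higher and 1 lower at an unadjusted p of 0.05, and Col18a1 (0.41) had the smallest p. Averaged over these 32 genes, the mutants (-0.05 to 0.29 of the control mean) lay within the range of the controls (-0.28 to 0.49). In the BMP and TGF-beta list, where Nog fell, 28 of 39 genes were higher with a median of 0.13, or 0.09 without mutant 6. The type I and type II receptors Acvr2a (0.63), Bmpr1a (0.34), Bmpr2 (0.33), Tgfbr1 (0.38) and Tgfbr2 (0.30) and the mediator Smad5 (0.37) were each higher at an unadjusted p of 0.05, and 0 of these passed. The same sign held on both chips for all 3 medians.

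Further lists held no called gene. Immediate early genes, which neurons transcribe on activation, had 12 of 14 lower, with a median of -0.05 and a mean of -0.16, and 4 were lower at an unadjusted p of 0.05. Their median was -0.14 without control 1 and -0.11 without controls 6 and 8. Egr4 had 5.33 to 6.61 in mutants and 6.32 to 7.30 in controls (log2 change -0.67, limma adjusted p = 0.112), and Junb was at -0.51, while Fos was at -0.04. Of 1053 olfactory receptor genes on the array, 52 had a detected probe, none in the brightest of those 5 bins. Of the 52, 42 were lower, where 51.3% of all genes were. Their median was -0.10, with 0 called (limma, 3 lower at an unadjusted p of 0.05). Averaged over the 52 genes the arrays overlapped, from -0.27 to 0.10 in mutants and from -0.27 to 0.24 in controls. S100a5, a calcium-binding protein of sensory neurons, was at -0.71 (6.31 to 8.73 in mutants, 6.71 to 8.77 in controls, limma adjusted p = 0.422). It was the lowest of 6 measured sensory neuron markers, of which 3 were lower and 3 higher. Their median was -0.01, at -0.14 on chip 1 and 0.10 on chip 2. Astrocyte (0.03), microglia (-0.05), endothelial and pericyte (-0.03), cholesterol synthesis (0.02), proteasome (-0.01), Notch (0.03), FGF (0.02), ephrin (0.01) and semaphorin (0.01) medians were all within 0.05 of 0, each turned sign under at least 1 alternative, and 0 of their genes passed. In those 9 lists, 1 to 4 genes each reached an unadjusted p of 0.05, except for the endothelial list with 0.

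The chromosomal position of Tshz1 was examined in gene order only, since no build of the array's coordinates was used. Of the 10 tested genes nearest on each side of Tshz1, 14 were lower, 6 higher and 0 of 20 passed with limma. The 4 with an unadjusted p under 0.05 were Dipk1c (-0.40), Neto1 (-0.35), Socs6 (0.27) and Timm21 (0.17), and the next neighbours Zfp516 (-0.07) and Zadh2 (-0.10) changed little. Chromosome 18 as a whole held 3 called genes among 256 (1.17%), Adamts19, Camk2a and Haus1 (adjusted p = 0.0709 for Haus1 with the replicate block), against 0.691% of all genes.

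Second probes on the array gave a check of single genes. For 16 of the called genes another probe was tested, 19 probes in all, and all 19 had the same sign. In a fit with every probe as a separate feature, 9 of the 19 passed, for 8 genes. The second Gad1 probe gave -0.55 (limma adjusted p = 0.0464), that of Sybu -0.72, that of Slc35f4 -0.76 and that of Wnt9b 0.74 (limma adjusted p = 0.00233). The second probe of Camk2a gave -0.43 and did not pass, and the other probes of Cpa3 gave -1.46 (limma adjusted p = 0.0479) and -0.36 (limma adjusted p = 0.262).

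The E18.5 changes were then set beside those of the P30 bulbs in 1 fit over all 32 arrays, in which 364 of 11312 genes (3.22%) were called for a difference between the ages and 1315 (11.6%) for P30 alone. Each age lay on its own chips and used other alleles, so age cannot be told apart from chip or from the allele. Of the 75 genes, 64 had the same sign at P30, against 49.4% of all genes. At P30, 47 of the 75 were called in the same direction (62.7% of the E18.5 calls and 3.57% of the P30 calls), 43 lower and 4 higher, and 2 in the opposite one. Changes of near equal size at E18.5 and P30 were those of Ntsr1 (-1.78 and -1.89), Crabp1 (-1.47 and -1.57), Prokr2 (-1.19 and -1.03), Meis1 (-0.82 and -0.80), Camk2a (-0.79 and -0.76) and Fhdc1 (0.73 and 0.73). For Ntsr1 the difference between the ages was 0.11 (SE 0.27).

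The change at E18.5 differed from that at P30 for 14 of the 75 genes. In 6 the sign turned: Th (-0.79 at E18.5 and 0.67 at P30), Crhbp (-1.01 and 0.50), Nmbr (0.77 at P30), Vgf (-0.77 and 0.47), Nkx2-2 (-0.48 and 0.79) and Grid2ip (-0.72 and 0.50). Of these, Th and Nkx2-2 were called higher at P30 (limma adjusted p = 0.00575 and 0.00437). The others were not called at P30 (limma adjusted p from 0.0566 for Crhbp to 0.186 for Grid2ip). At P30 Nmbr was detected on 4 mutant and 0 control arrays, and Grid2ip on 5 and 3. In another 6 the same sign was larger at P30, the most so in Kcnh3 (-0.90 at E18.5 and -3.18 at P30) and Prok2 (-0.51 and -2.15), then Snx7, Actn2, Fam131b (called at E18.5 without the replicate block, adjusted p = 0.104 with it) and Wnt9b (0.73 and 1.67). C1ql2 (-2.47 and -0.87) and Cpa3 (-1.49 and -0.05) were larger at E18.5. For Cpa3 the P30 means of 4.79 in mutants and 4.84 in controls were near background. Among the lists, the GABA median was -0.23 at E18.5 and -0.01 at P30, that of mitosis genes 0.18 and 0.19, and that of oxidative phosphorylation subunits -0.10 and 0.01. Of the genes of these 3 lists, 0, 1 and 0 were called for the difference.

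**Figure D5:**
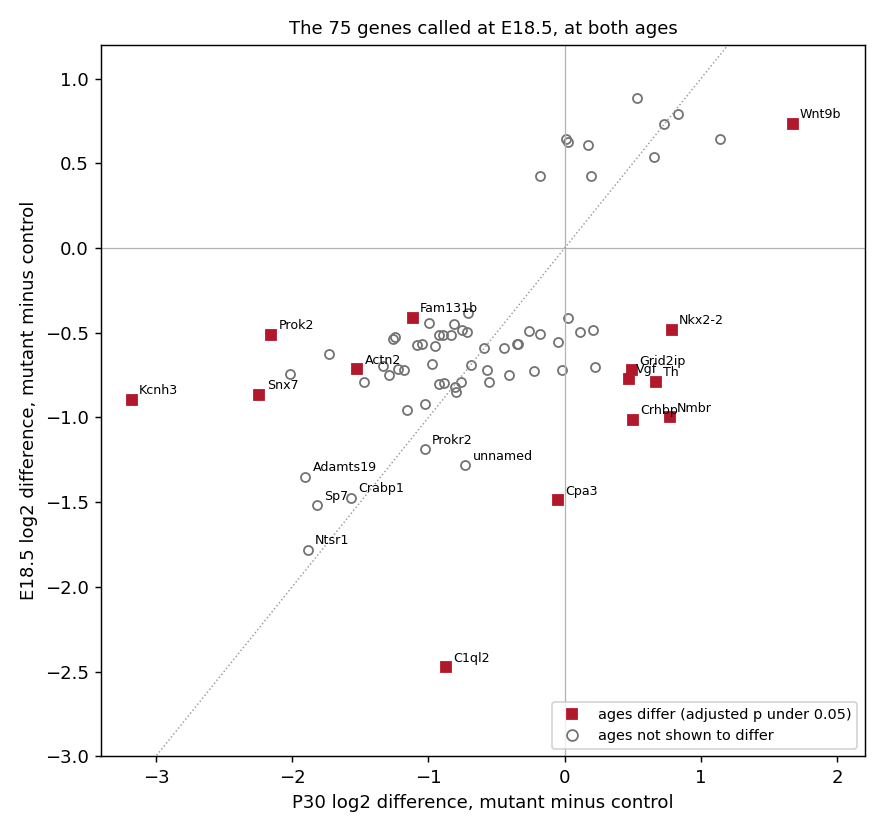
Log2 difference, mutant minus control, of the 75 genes called at E18.5, at E18.5 (vertical axis) against P30 (horizontal axis), from the fit over all 32 arrays; filled squares are genes whose changes differed between the ages (limma adjusted p under 0.05), open circles the others, and the dotted line marks equal change. The 6 squares in the lower right quadrant are genes lower at E18.5 with a P30 value above 0, and Kcnh3 and Prok2 lie far to the left of the line.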

How the data were processed

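Total RNA of 32 olfactory bulb samples was hybridised to Illumina bead arrays and the files were exported from GenomeStudio (version not given in the sources used here), per the submitters' processing notes. The deposited non-normalized table, per the file headers, gives for each probe and array the mean bead intensity (AVG_Signal, linear scale) and a detection p-value that the authors' software computed against negative control beads. The E18.5 arrays were background-corrected from these detection p-values with an offset of 16, quantile normalized among the 16 arrays and put on the log2 scale with limma 3.58.1 in R 4.3.3. The deposited normalized table, of which 25.7% of values are below 0, was used only as an alternative, with the authors' intensity values floored before log2. Probes detected on at least 4 arrays entered, and a gene was represented by its brightest probe. Probe names came from the platform annotation, which gave 1 gene for 23978 probes and none for 1719.

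The test was limma's linear model with chip as a block, moderated over all genes, with p-values adjusted by Benjamini-Hochberg and called under 0.05. It was tested on simulated data of 10852 genes, 200 of them changed. The changes recovered were 68.7% at 1.5-fold, 89.6% at 2-fold and 100% at 3-fold, and 13 unchanged genes were called. The ages were compared by the interaction term of a fit over all 32 arrays. Named genes were the 15 largest falls and all rises past the threshold with the same direction on both chips, every called member of a list, up to 2 members with the smallest p in lists without one, the Tshz family, 10 genes on each side of Tshz1 and the 3 genes on each side of the threshold. Other genes were named after their values were seen. The members and gene lists were chosen with earlier results of these data known. Lists are described by counts and medians.

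Samples with the same replicate number correlated at 0.118 to 0.355 around their group means in all 8 pairs, and at -0.08 to 0.303 within chips. The numbers come from the sample titles. The main fit did not pair samples by them, and the replicate block, which does, was an alternative. The alternatives were no chip term, each chip alone, the replicate block, other scaling, background, offset, detection filters, probes, weights and moderation, the deposited normalized table, and leaving out arrays. A fit with Xist as a covariate was chosen after seeing the data. The number of arrays limits the precision. Promoter windows came from RefSeq (GRCm38.p6). Figures were drawn with Python 3.11.15 and matplotlib 3.10.9.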

Additional observations from a re-analysis of the deposited data

Results flagged for a closer look

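Among the 150 groups of 8 arrays formed by the 75 called genes, 12 held an array far from the others, where chance gives about 1 in 20. In log2 intensity these were mutant 8 for Cpne6 (12.33) and Sptb (6.58), mutant 1 for Kcnj4 (6.56), mutant 4 for Nog (6.64) and mutant 2 for Trhde (5.35), each the lowest of its group. Among controls, control 6 was the highest for Fam131b (10.15) and Icam5 (7.38) and the lowest for Slc1a1 (11.08) and Vstm2a (9.17). Control 8 was the highest for Haus1 (9.38), and control 5 for Rap1gap2 (10.67) and control 3 for Trhde (6.37) were the lowest. Control 6 thus accounted for 4 of the 12.

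The change at E18.5 minus the change at P30 passed the interaction test for 14 called genes, on the log2 scale. It was positive for Kcnh3 (2.28), Prok2 (1.64), Snx7 (1.37), Actn2 (0.81) and Fam131b (0.70), all lower in mutants at both ages and more so at P30. It was negative for Th (-1.46), Crhbp (-1.51), Nkx2-2 (-1.27), Vgf (-1.24), Nmbr (-1.77) and Grid2ip (-1.22), lower in mutants at E18.5 with a P30 value above 0. It was also negative for Cpa3 (-1.44), C1ql2 (-1.60) and Wnt9b (-0.94). For Kcnh3 and Prok2 control levels were lower at E18.5 than at P30, and the part of this in the differences was not tested. At E18.5 the Kcnh3 probe was detected on 8 mutant arrays and that of Prok2 on 7. Age cannot be told apart from chip or allele here.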

How the results depend on the processing

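The 75 genes called at E18.5 became 31 on chip 1 alone and 4 on chip 2 alone, where each group holds 4 arrays, and 55 to 126 when single arrays were left out, with 126 without control 5. The 11 higher genes became 5 on chip 1 alone, 0 on chip 2 alone, 24 with array weights, 7 without controls 6 and 8, and 5 to 30 without single arrays, with 5 without mutant 1 or control 2 and 30 without control 5. The 64 lower genes became 26 on chip 1 alone, 4 on chip 2 alone and 49 to 96 without single arrays, 96 without control 5. Higher genes were 11 of the 75, and 23.8% of calls without control 5, 23.3% with array weights and 0% on chip 2 alone. With the replicate block 62 genes were called, 53 of them among the 75, and 380 genes differed between ages. That number was 364 without the replicate block, and became 209 without a chip term and 178 with median scaling, which also moved the median of all genes at E18.5 to -0.03. With Xist as a covariate, chosen after seeing the data, 89 genes were called, including all 75. Median scaling ended the calls of Slc32a1 (adjusted p = 0.0515), Prok2 (0.0985), Cdh22 (0.0669), Cck (0.0645), Brinp2 (0.0965), Camkv (0.0915), Fam131b (0.411), Hpcal4 (0.325), Nkx2-2 (0.251), Synm (0.0915) and Top2a (0.395) among the genes described. Leaving out controls 6 and 8 ended those of Trp63 (0.0575), Creg2 (0.0991), Tfap2b (0.142), Pgm5 (0.076), Synm (0.187), Camkv (0.149), Fam131b (0.123), Haus1 (0.13) and Nkx2-2 (0.17). The cause was not tested. Of the list medians, 39 kept their sign under all 32 alternatives. Folds of probes not detected on every array, among them those of C1ql2, Crabp1, Crhbp, Cdh22, Adamts19, Cma1, Icam5, Grid2ip, Wnt9b, Npr3 and Trp63, depend on the background: without its correction these 11 changes shrank by over 1.5 times. Dim probes detected on all 16 arrays varied too. Over the 32 alternatives Kcnh3 ran from -1.21 to -0.55, Gabrd from -0.86 to -0.37 and Cck from -0.70 to -0.28.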
